A study of Mus musculus with 3 samples.

Results

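The genes described here prepare DNA for replication. They are Mcm2, Mcm3, Mcm4, Mcm5, Mcm6 and Mcm7, whose products form the ring-shaped MCM helicase, Cdc6 and Cdt1, whose products load that ring onto DNA, Gmnn, which encodes the Cdt1 inhibitor geminin, and Mcm10, which encodes a later factor that joins the helicase as it starts to unwind. They were chosen by name, and all 10 of 10 were measured, with 1 probe each, among 19084 named genes on the array. RNA came from the liver of a wild type female mouse (normal liver), from a liver tumor of a female Gnmt-/- mouse (Gnmt-/- HCC) and from Ymac-1 cells, a line grown in DMEM that was started from the liver tumor of an aged Gnmt-/- mouse and passaged many times, and that the study describes as a model of sarcomatoid HCC. Gnmt encodes glycine N-methyltransferase. Each was read in Cy5 on 1 Mouse Whole Genome OneArray, a single-colour array. With 1 array per condition no difference below could be checked against replicates, and none has a P value. The line is a single isolate from 1 tumor, and its passage on the array and the ages of the liver and HCC donors are not given. The study compared Ymac-1 with liver and HCC profiles from an earlier data set. Any difference in how the tissue and Ymac-1 arrays were run cannot be told apart from the differences below. The sources used here do not say whether the liver and HCC arrays are those earlier profiles. Neither do the sources used here say whether the HCC array holds the tumor that gave rise to the line.

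In a cell that is about to divide, the origin recognition complex marks the places where replication can begin. Cdc6 and Cdt1 then load the MCM ring there as an inactive double hexamer, a step called licensing, and kinases later switch the ring on together with Cdc45 and the GINS complex. Geminin binds Cdt1 after replication has begun, which keeps an origin from being used again in the same cycle. Resting hepatocytes of the adult liver have mostly left the cell cycle, and genes of this group are well known targets of the E2F transcription factors.

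Values are fluorescence intensities on a linear scale, from which the authors had subtracted background, so that some lie at or below 0. Readings below 50 were raised to that floor before logarithms were taken. The words higher and lower are used for a log2 difference whose size reached 1, and where the smaller reading lay at the floor the fold is a lower bound. The sources used here do not say how the authors scaled the arrays, and no further scaling was applied. The median probe read between 15.8 and 38.5 on the 3 arrays, lowest in normal liver and highest in HCC. Among 7687 genes above the floor on every array, the median log2 difference was 0.65 for HCC over normal liver, 0.06 for Ymac-1 over HCC and 0.72 for Ymac-1 over normal liver, and differences from normal liver are to be read against those shifts. The Gnmt probe gave 3583 in the wild type liver against 15.6 and 56.1 in the HCC and the Ymac-1 cells, and the place of this probe relative to the deletion was not tested. The 8 measured hepatocyte markers were above the floor in liver and HCC, and all 8 were lower in Ymac-1. The share of all genes that fell past the threshold in the line was 15.9% against the tumor and 9.41% against normal liver. Alb, Ttr, Apoa1 and Cps1 lay under the floor in Ymac-1, Alb only just, at 48.3. Hnf4a, Hpx, Tat and Apoa2 lay above it there, at 752, 189, 103 and 69.8. By PCR the paper reports Albumin RNA in the line, at a level far from that of normal liver.

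The promoters of 8 of the 10 genes were found in a RefSeq table of the mouse build GRCm38.p6, which gives 250 bases before and 50 after a transcript start. Those of Mcm4 and Gmnn were not used here. Letters bound by E2F were searched as TTTGGCGC, TTTCGCGC, TTTCCCGC or TTTGCCGC on both strands, the NF-Y box as CCAAT, and the cell cycle homology region, CHR, as TTTGAA or TTCGAA. At least 1 E2F match lay in the promoters of 6 of the 8 genes, Mcm3, Mcm5, Mcm6, Mcm7, Cdt1 and Cdc6, against 2.6% of 27025 genes and 2.26% of 32851 promoters in the whole table. CCAAT lay in 6 of the 8, against 41.1% of genes, and CHR letters in 2 of the 8, Mcm2 and Mcm7, against 21.7%. A match is a description of the letters and not a measured site.
The 200 bases before the start are shown for 4 genes. Mcm5 and Mcm6 stand for the promoters that hold E2F letters, Mcm2 for a helicase gene without them, and Mcm10 for the gene whose readings went another way. Capitals mark E2F letters and CCAAT, on either strand, and each sequence runs 5′ to 3′ along the gene.
Mcm5 (chr8:75109309-75109508, + strand): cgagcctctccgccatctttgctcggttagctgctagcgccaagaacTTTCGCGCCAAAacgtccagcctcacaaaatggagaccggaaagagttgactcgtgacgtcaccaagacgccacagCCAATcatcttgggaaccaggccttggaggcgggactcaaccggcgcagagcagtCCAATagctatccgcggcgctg
Mcm6 (chr1:128359706-128359905, - strand): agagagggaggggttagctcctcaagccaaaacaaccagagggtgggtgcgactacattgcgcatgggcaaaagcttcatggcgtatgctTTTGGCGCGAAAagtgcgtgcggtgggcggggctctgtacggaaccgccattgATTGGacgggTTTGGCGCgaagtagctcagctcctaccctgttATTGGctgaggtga
Mcm2 (chr6:88898781-88898980, - strand): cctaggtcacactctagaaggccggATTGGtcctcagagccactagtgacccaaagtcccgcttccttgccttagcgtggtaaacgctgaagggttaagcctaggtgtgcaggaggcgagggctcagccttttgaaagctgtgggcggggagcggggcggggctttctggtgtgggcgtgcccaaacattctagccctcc
Mcm10 (chr2:5012792-5012991, - strand): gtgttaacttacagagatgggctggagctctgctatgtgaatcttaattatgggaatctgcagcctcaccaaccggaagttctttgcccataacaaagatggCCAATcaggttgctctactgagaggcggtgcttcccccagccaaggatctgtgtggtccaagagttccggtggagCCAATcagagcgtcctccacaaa
In Mcm5 the capitals furthest from the start are a pair of overlapping E2F matches on opposite strands, at -153 to -146 and -149 to -142. Mcm6 held a like pair at -110 to -103 and -106 to -99, and a further match at -47 to -40. The E2F matches of Cdt1 and Mcm3 lay after the start, at 33 to 40 in Cdt1 and at 20 to 27 and 39 to 46 in Mcm3. Cdc6 had 1 match, at -138 to -131. Mcm7 has a pair of listed starts, and its E2F letters lay at the outer one alone, at -165 to -158 and at 17 to 24, the latter sharing its last base with a CCAAT.

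**Figure D1:**
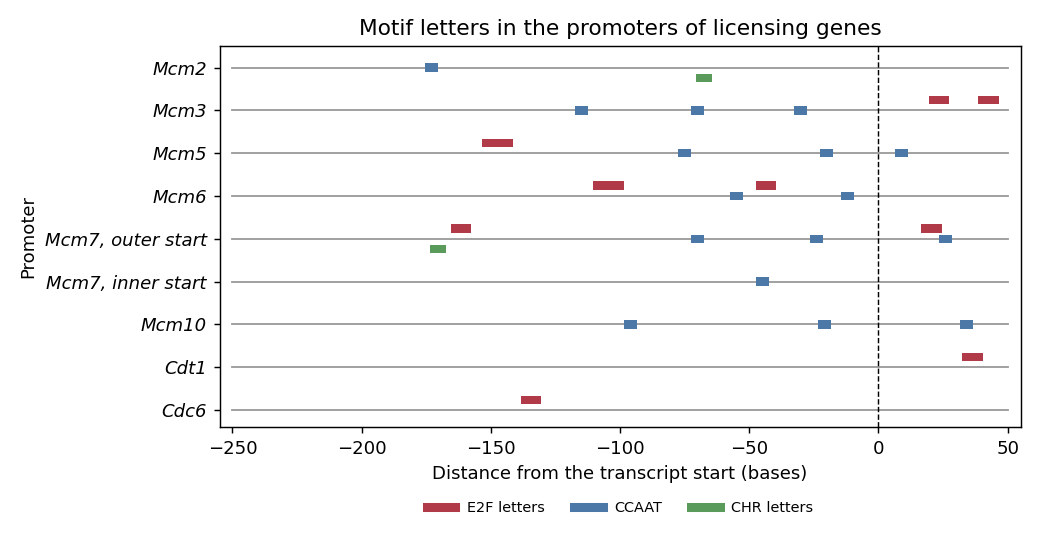
Motif letters in 9 promoter windows of 8 licensing genes, by distance in bases from the transcript start (dashed line), with red blocks for E2F letters, blue for CCAAT and green for CHR letters on either strand. E2F letters lie in 6 of the 8 genes and are missing from the windows of Mcm2 and Mcm10.

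All 6 of Mcm2 to Mcm7 were higher in Ymac-1 cells than in the HCC or the normal liver, with a median log2 difference of 4.06 and 4.82. The share of all genes that rose past the threshold in the cell line was 14.7% against the tumor and 23.3% against normal liver. Above the floor lay 3 of the 6 in normal liver, 4 in the tumor and all 6 in the cell line. In bulk RNA, more dividing cells and more RNA per cell cannot be told apart.
Mcm5, one of the 6 ring subunits, read 26.7, 44.4 and 3345 across liver, HCC and Ymac-1. It was at least 66.9-fold higher in Ymac-1 than in either tissue, a bound because both tissues lay under the floor. The log2 difference from HCC, 6.06 at the floor of 50, was 6.24 at a floor of 25 and 5.06 at a floor of 100.
Mcm2, which forms with Mcm5 the gate through which DNA enters the ring, read 19.4 in the liver and 40.0 in the HCC, against 1259.9 in the Ymac-1 cells. It too was under the floor in both tissues, and was at least 25.2-fold higher in Ymac-1. Mcm2 and Mcm5 therefore have no fold between HCC and liver.
Mcm3 read 37.1 in the wild type liver, 100.4 in the tumor and 1836 in the cell line. Ymac-1 exceeded HCC 18.3-fold, and exceeded liver at least 36.7-fold.
Mcm4, Mcm6 and Mcm7 make up the core of the ring that carries most of its helicase activity. Mcm4 read 212, 346 and 4889 across liver, HCC and Ymac-1, a 14.1-fold difference between Ymac-1 and HCC. Mcm6 read 108 in the liver and 225 in the HCC, against 3424 in the Ymac-1 cells, which was 15.2-fold above HCC and 31.6-fold above liver. Mcm7 read 231 in the wild type liver, 345 in the tumor and 3596 in the cell line. It had the smallest step of the 6 between Ymac-1 and HCC, 10.4-fold. The log2 differences between Ymac-1 and HCC thus ran from 3.38 in Mcm7 to at least 6.06 in Mcm5, and 3 of the 6, Mcm2, Mcm3 and Mcm5, lay under the floor on at least 1 array.
Within each array the same probes can also be placed by rank, which does not depend on a scaling factor. The probes of Mcm2 to Mcm7 lay between percentiles 52.6 and 76.9 of all probes on the liver array, between 50.4 and 75.3 on the HCC array, and between 88.8 and 97.1 on that of Ymac-1.

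**Figure D2:**
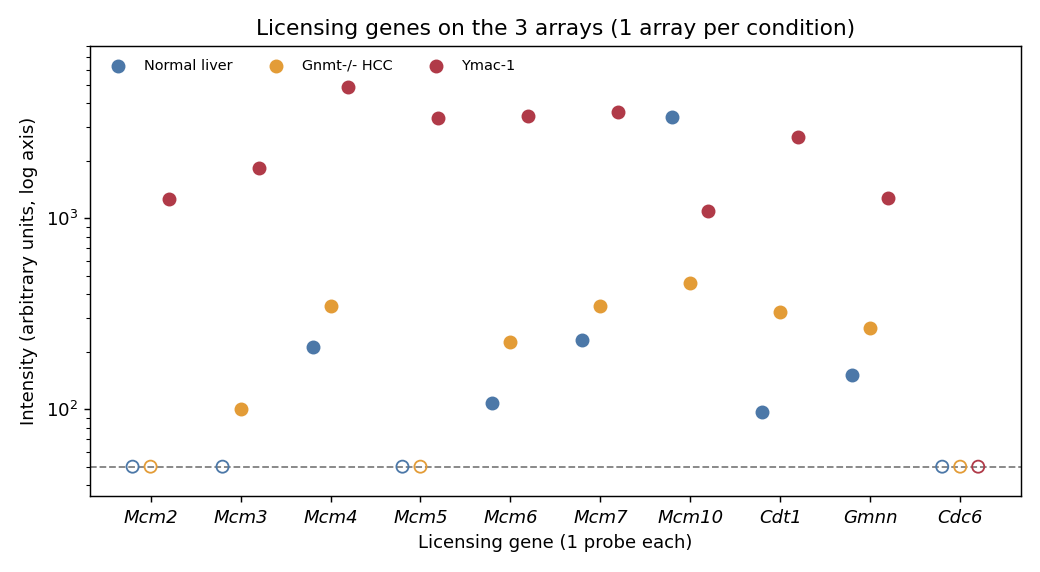
Intensity (log axis) of the 10 licensing genes in normal liver, Gnmt-/- HCC and Ymac-1, with 1 point per array and 1 probe per gene. Open circles on the dashed line are readings at or under the floor of 50. The Ymac-1 points of Mcm2 to Mcm7, Cdt1 and Gmnn lie above both tissues, Mcm10 is highest in normal liver, and Cdc6 is at the floor on every array.

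Of the loading factors, Cdt1 lay above the floor on every array and Cdc6 on none. Cdt1, which carries the ring to the origin, read 97.2, 325 and 2669 across liver, HCC and Ymac-1. Ymac-1 exceeded HCC 8.22-fold. HCC exceeded liver 3.34-fold, the largest positive step between the tissues among the 10 genes.
Cdc6, the ATPase that opens the way for Cdt1, read -1.001 in the liver and 2.84 in the HCC, against 7.89 in the Ymac-1 cells. All these readings lie under the floor, so Cdc6 has no fold in any comparison, and its level was not detectable with this probe. Among the probes with 1 gene symbol, 1 is named for Cdc6, so no second probe was set beside it.
Gmnn, whose product holds Cdt1 inactive, was higher in Ymac-1 as well. It read 152 in the wild type liver, 265 in the tumor and 1280.4 in the cell line, which was 4.83-fold above HCC and 8.44-fold above liver. The log2 difference between Ymac-1 and liver was 4.78 for Cdt1 and 3.08 for Gmnn, and with 1 array per condition the gap between these values was not tested.

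Mcm10 was the exception. It read 3381, 458 and 1092 across liver, HCC and Ymac-1 and was highest in normal liver. The HCC reading was 7.37-fold below that of liver and the Ymac-1 reading 3.10-fold below it, while Ymac-1 exceeded HCC 2.38-fold. Of all genes, 21 had a more negative log2 difference between HCC and liver. Its probe stood at percentile 97.0 of all probes on the liver array, 78.6 on the HCC array and 87.5 on that of Ymac-1. The range between the probes of 1 gene was taken over 582 genes with several probes above the floor on all arrays. For HCC over liver it had a median of 0.30 and a 90th percentile of 0.80 log2 units, where Mcm10 differed by -2.88. That range holds no variation between animals or repeat arrays, so it gives no error for the Mcm10 difference. Mcm10 has a single probe, and whether that probe reads another transcript was not tested.

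Counted together, 9 of the 10 licensing genes had a higher reading in Ymac-1 than in HCC by this threshold and 0 a lower one, where 14.7% of all genes were higher and 15.9% lower. The median log2 difference of the 10 was 3.60, against 0 over all genes and 0.06 over those above the floor on every array. Against normal liver, 8 of the 10 were higher in Ymac-1 (23.3% of all genes) and 1, Mcm10, was lower (9.41%), with a median of 4.59. Among the 6 licensing genes above the floor on all 3 arrays, 6 were higher in the line than in the tumor (median 3.21). The share over all genes above the floor on every array was 23.7%. Against liver 5 of the 6 were higher, beside 42.1% of those genes.
Between normal liver and HCC the genes went different ways. Of the 10 genes 3 were higher in HCC, Mcm3, Mcm6 and Cdt1, where 15.9% of all genes were, and 1, Mcm10, was lower, where 0.749% were. Mcm3 (at least 2.01-fold) and Mcm6 (2.08-fold) lay just past the threshold, at 1.01 and 1.06 on the log2 scale. Gmnn, Mcm4 and Mcm7 did not reach it, at 0.81, 0.71 and 0.58. The median of the 10, in which Mcm2, Mcm5 and Cdc6 count as 0, was 0.64 against 0.02 over all genes. Over the 6 licensing genes above the floor on every array it was 0.76, against 0.65 over all such genes. Of these 6, 2 were higher in HCC (25.7% of all such genes) and 1, Mcm10, was lower (57 of 7687).
The differences between HCC and liver moved with the scaling. After quantile normalization none of the 10 was higher in HCC than in liver, and the log2 differences of Mcm3, Mcm6 and Cdt1 became 0.18, 0.18 and 0.90. Mcm4 and Mcm7 changed sign under each of 4 other scalings, lying between -0.57 and -0.02 and between -0.70 and -0.15. Gmnn ranged from -0.48 to 0.08 and Mcm6 from -0.23 to 0.33. Mcm10 stayed lower in HCC under all 4, with differences between -4.16 and -3.45. Each step between HCC and Ymac-1 that passed the threshold kept its direction and passed it under the same scalings, with Mcm5 between 5.75 and 5.96 and Mcm10 between 1.15 and 1.73. As deposited, the same 3 genes were higher at both steps, a pattern of 3.67% of all genes.

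**Figure D3:**
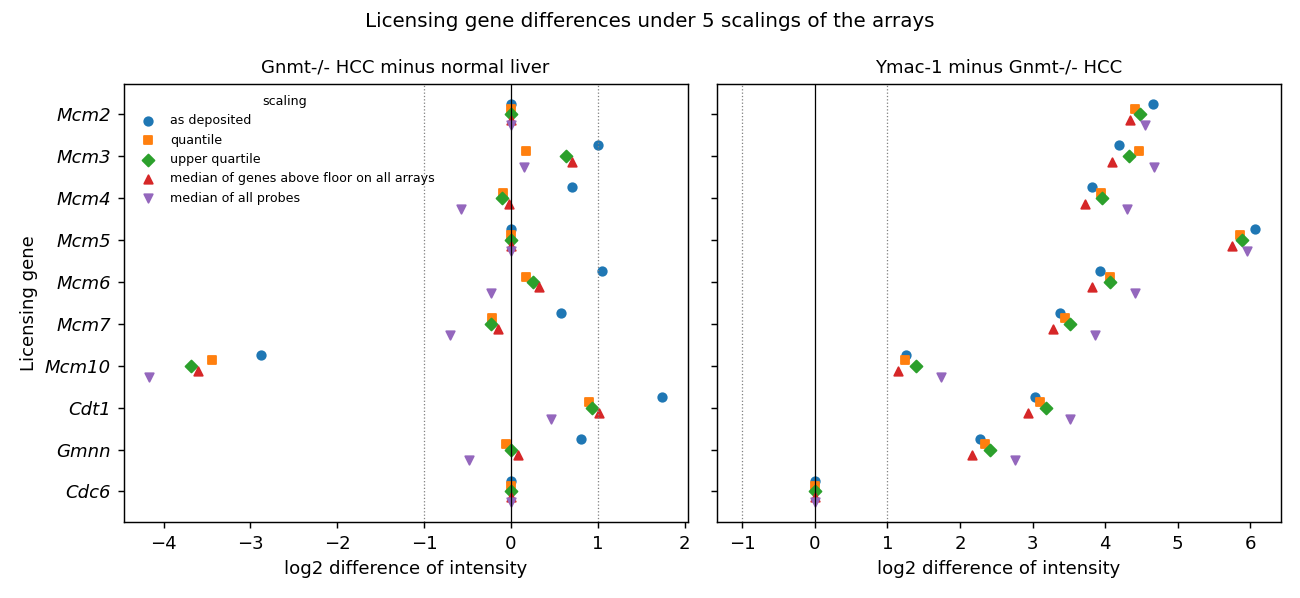
Log2 differences of the 10 licensing genes, HCC minus normal liver on the left and Ymac-1 minus HCC on the right, as deposited and under 4 other scalings of the arrays; dotted lines mark the threshold of 1. On the left the points of Mcm4, Mcm6, Mcm7 and Gmnn fall on both sides of 0, and on the right 9 genes lie beyond 1 under every scaling shown.

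**Figure D4:**
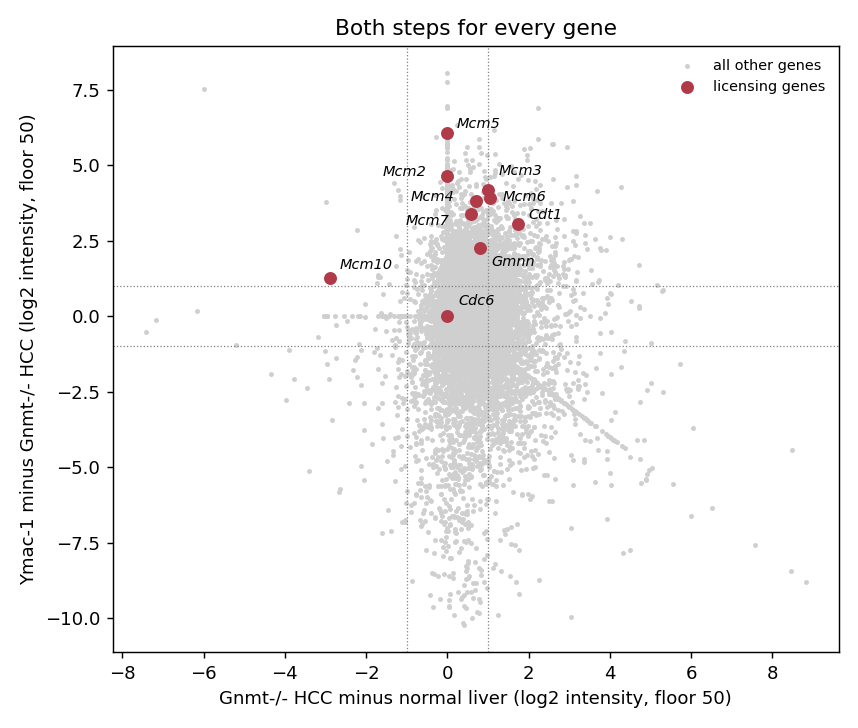
Every gene by its step from normal liver to HCC (x axis) and from HCC to Ymac-1 (y axis), in log2 intensity, with the 10 licensing genes in red and dotted lines at the threshold of 1. Mcm2 and Mcm5 stand at 0 on the x axis because both tissues are under the floor, Mcm10 stands at -2.88, and Cdc6 sits at the origin.

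The origin recognition complex, on which the ring is loaded, was higher in Ymac-1 in part of its genes. Of 7 measured, 3 were higher in Ymac-1 cells than in the HCC and 0 were lower, beside 14.7% and 15.9% of all genes. The median log2 difference was 0.25. Orc6, the smallest subunit, read 114 in the liver and 166 in the HCC, against 1985.5 in the Ymac-1 cells (12.0-fold above HCC). Orc2, a core subunit, read 19.95 in the wild type liver, 49.5 in the tumor and 549 in the cell line, at least 10.97-fold above HCC, and Lrwd1, which stabilizes the complex on chromatin, read 98.5, 134 and 705 in the same order.
The other subunits did not pass the threshold between HCC and Ymac-1. Orc5 read 833, 1245 and 1451 across liver, HCC and Ymac-1. Orc4 read 21.96 in the liver and 76.8 in the HCC, against 65.8 in the Ymac-1 cells. Orc1, the subunit that cycles most strongly in mammalian cells, was under the floor in both tissues and read 59.7 in Ymac-1, and Orc3 was under the floor on every array.
Of 9 measured relatives and partners of the MCM ring, 1 was higher in the line than in the tumor and 2 were lower, where 14.7% of all genes were higher and 15.9% lower. Mcm8 and Mcm9, which form a separate helicase for DNA repair, and Mcmdc2, needed in meiosis, lay under the floor on all arrays, as did Mcidas, a geminin relative of multiciliated cells. Mcmbp, whose product binds free MCM proteins, read 144 in the wild type liver, 232 in the tumor and 44.9 in the cell line, at least 4.64-fold below HCC in the cell line. Gmnc, another geminin relative, read 296, 258 and 15.6 across liver, HCC and Ymac-1. Kat7, a histone acetyltransferase that helps licensing, was the higher one, at 304 in the liver, 427 in the tumor and 1531 in the cell line. Supt16, a histone chaperone gene, had a log2 difference of -0.68 between Ymac-1 and HCC, and Mcm3ap, whose product acetylates Mcm3, one of 0.42.

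Of 17 origin firing genes, 14 were higher and 1 was lower in Ymac-1 cells than in the HCC, with a median of 2.59. Across all genes 14.7% were higher and 15.9% lower. Over the 4 other scalings the count of higher firing genes lay between 13 and 15. Above the floor on every array were 6 of the 17, of which 5 were higher, beside 23.7% of all such genes. Dbf4, the activator of the Cdc7 kinase that phosphorylates the ring, read 62.8 in the liver, 249 in the tumor and 5711 in the cell line, where it was 22.9-fold above the tumor. Gins1, of the GINS complex, read 20.9 in the liver and 92.3 in the HCC, against 1938 in the Ymac-1 cells. At the other end, Rif1, which counters that kinase, had a log2 difference of 0.83, and the cyclin gene Ccne2 was lower in Ymac-1 than in HCC, at 109 against 360.1.
Of 32 replication fork genes measured, 27 were higher in the line than in the tumor and 0 were lower, with a median of 2.66. The shares over all genes were again 14.7% and 15.9%. Tipin, of the fork protection complex, read 59.8 in the wild type liver, 97.3 in the tumor and 1926 in the cell line. Clspn, which encodes the checkpoint mediator claspin, was under the floor in both tissues and read 848 in Ymac-1. The lowest differences were those of Pold4 (-0.59) and Pole4 (0.36), accessory subunits of the replicative polymerases. Between normal liver and HCC 4 of the firing genes and 6 of the fork genes were higher and 0 were lower as deposited, where 15.9% of all genes were higher, and under the other scalings 1 to 2 and 0 to 1 were higher.
Of 15 measured genes in the turnover of licensing factors, 6 were higher and 2 lower in Ymac-1 cells than in the HCC, beside 14.7% and 15.9% of all genes. Fbxo5, an inhibitor of the anaphase-promoting complex that protects geminin, read 26.1, 67.8 and 1211 across liver, HCC and Ymac-1, and Dtl, the adaptor that marks Cdt1 for destruction in S phase, read 21.1, 39.4 and 697 in that order. Fbxo31, an F-box gene, read 266 in the liver, 512 in the tumor and 143 in the cell line, 3.58-fold below the tumor. Huwe1, a ubiquitin ligase gene whose targets include Cdc6, read 4798 in the liver and 9307 in the HCC, against 2879 in the Ymac-1 cells.

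**Figure D5:**
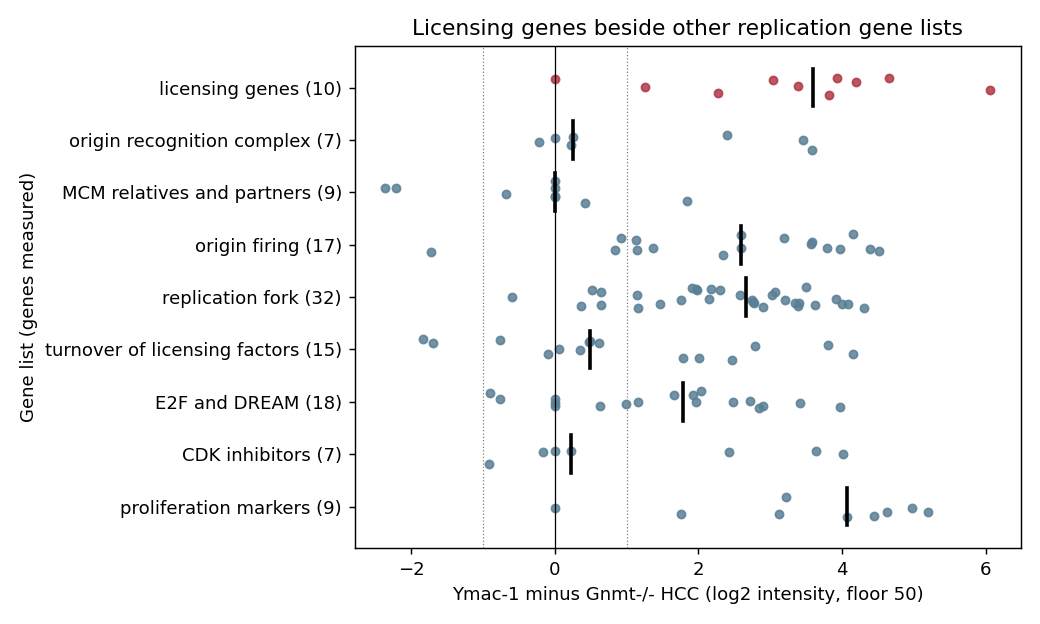
Log2 difference of Ymac-1 over HCC for each measured gene of 9 lists (1 point per gene, spread vertically for legibility), with black bars at the medians and dotted lines at the threshold of 1. The licensing genes have a median of 3.60, above the origin recognition genes at 0.25 and near the proliferation markers at 4.07.

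Among the regulators of these genes, 11 of 18 in the E2F and DREAM list were higher in the line than in the tumor and 0 were lower. Across all genes 14.7% were higher and 15.9% lower. Foxm1, a transcription factor of mitotic genes, was under the floor in both tissues and read 784 in Ymac-1, and E2f7, an E2F that represses, read 535 there. E2f2 and Rb1 had differences of -0.77 and -0.90. Among CDK inhibitor genes 3 of 7 were higher in the cell line than in the tumor, beside 14.7% of all genes. Those 3 lay under the floor in normal liver. They included Cdkn2d at 808 and Cdkn2b at 1889.5 in Ymac-1 against 45.7 and 152 in HCC. Cdkn1a, the inhibitor that p53 induces, read 1804 in the wild type liver, 7943 in the tumor and 7102 in the cell line, and Cdkn1c had a difference of -0.92.
Of 9 proliferation markers, 8 were higher in the cell line than in the tumor, beside 14.7% of all genes, with a median of 4.07. The other, Cdk1, lay under the floor on every array, at 49.5 in Ymac-1. Only 1 of the 9, Tk1, lay above the floor on every array. In HCC 4 of the 9 markers were higher than in liver (2 to 4 under the other scalings), beside 15.9% of all genes. Bub1, of the spindle checkpoint, read 1826 in Ymac-1 and lay under the floor in both tissues. Top2a, which untangles replicated DNA, read 10.98, 148 and 4649 across liver, HCC and Ymac-1, while Tk1 and Plk1 differed by 1.75 and 3.12 between Ymac-1 and HCC.
Markers of other liver cells moved between the same arrays. Between HCC and Ymac-1, 7 of 8 Kupffer cell and macrophage markers, 8 of 8 markers of endothelium, 5 of 8 of stellate cells and fibroblasts and 2 of 8 of lymphocytes were lower in Ymac-1, and 0 of these were higher. Only 6 of the 8 stellate cell and fibroblast markers and 3 of the 8 lymphocyte markers lay above the floor on any array. The others could not be called either way. Of 5 bile duct markers, 3 were higher and 1 was lower. Across all genes 14.7% were higher and 15.9% lower. The summed intensity of the hepatocyte markers was 201956 in the liver, 284404 in the tumor and 1226 in the line. That of the macrophage markers was 4874 in the liver, 16243 in the tumor and 3421 in the line. Most of the sum in the line came from Cd14, which read 147, 4764 and 2558 across liver, HCC and Ymac-1. Clec4f, Adgre1, Marco, Cd5l and Vsig4 lay under the floor in Ymac-1. Csf1r and Cd68 lay above it and were not lower there than in normal liver. Csf1r read 469, 1308 and 546, and Cd68 read 160, 1183 and 247, across liver, HCC and Ymac-1. The lymphocyte markers summed to 314, 640.1 and 172. The part of these cell types in the licensing differences was not tested.

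Of 9 measured chromosomal neighbours of licensing genes, 4 were higher in Ymac-1 cells than in the HCC and 0 were lower, beside 14.7% and 15.9% of all genes. Above the floor on every array were 6 of the 9, the 4 higher ones among them, beside 23.7% of all such genes. Prkdc, which encodes a DNA repair kinase and is the next gene to Mcm4, read 162 in the liver and 366 in the HCC, against 224 in the Ymac-1 cells, where Mcm4 was 14.1-fold above HCC. Wipf2, beside Cdc6, differed by -0.54 between Ymac-1 and HCC. Aprt, beside Cdt1, read 840.2 in the wild type liver, 2023 in the tumor and 8236 in the cell line, and Ap4m1, beside Mcm7, read 116, 160.1 and 578 across liver, HCC and Ymac-1. The 3 microRNA hairpins that lie inside Mcm7, Mir25, Mir93 and Mir106b, each had a probe under the floor on all arrays. Whether the amplified RNA held such hairpins was not tested, so these readings cannot be set against that of Mcm7.
By distance between pairs of log2 steps, the genes nearest to the median pair of the licensing genes (0.64 and 3.60) were Cyp2s1, Tbc1d23, Orc6, Rcn2 and Pold2, at distances of 0.01, 0.10, 0.11, 0.14 and 0.14. They were drawn from 7681 other genes above the floor on all 3 arrays, of which 33 lay within 0.5, and the measure rests on 3 arrays. Of the licensing genes themselves, Mcm4 and Mcm7 lay at 0.23 from that pair and the others between 0.53 and 4.24, so the pair does not stand for each of them. Orc6 and Pold2 belong to the replication lists above, and Cyp2s1 encodes a cytochrome P450.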

How the data were processed

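Total RNA was amplified into Cy5-labelled antisense RNA and hybridized to OneArrays, 1 per condition. The deposited intensities are linear and background-subtracted by the authors. The sources used here give neither the scanner nor the background step or the scaling. Probes were named from the platform annotation, in which 21876 probes had 1 gene symbol. The other 4547, with no symbol or more than 1, were not assigned to a gene. By Entrez ID 21825 of the named probes were matched to the GRCm38.p6 gene table. The probe with the highest mean log2 intensity (floor 50) stood for a gene. Each of the 10 licensing genes had 1 probe.

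Differences are log2 intensities subtracted between arrays, with no test. Genes named in the text are all licensing genes, all origin recognition genes and MCM relatives, the 2 highest and 2 lowest members of each other list above the floor on at least 1 array, and the 5 nearest genes. Cdk1, under the floor on every array, is named besides these. The promoters printed and the Gnmt, marker and neighbour values were chosen after values were seen. The members and all 15 gene lists were chosen with earlier results of these data known. The calling steps were run on simulated data, with changes past the threshold planted in bright genes and little noise. That run checked the code and gives no error rate for these arrays. The alternatives were 4 scalings, 2 floors, log2(intensity + 50), 2 probe rules, a filter on dim genes and 2 thresholds, and list counts under them were added later. Protein motifs planned at first were not searched. Python 3.11.15, pandas 2.3.3, numpy 2.4.6 and matplotlib 3.10.9 were used.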

Additional observations from a re-analysis of the deposited data

How the results depend on the processing

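The counts of higher licensing genes and the medians in Ymac-1 against HCC were within 1.5 times, or within the median range between probes of 1 gene, of the reported values under all alternatives run. The same held for Ymac-1 against normal liver, except that 5 genes were higher when only genes above the floor on all arrays were kept, since 4 licensing genes then drop out. Under that same filter fewer genes are counted. The number higher in Ymac-1 than in HCC then fell from 14 to 5 for origin firing and 27 to 16 for the fork. For turnover it fell from 6 to 2 and for E2F and DREAM from 11 to 4. For CDK inhibitors it fell from 3 to 0 and for proliferation markers from 8 to 1. Mcm10, the 1 licensing gene lower in Ymac-1 than in liver, at -1.63, falls short of a log2 threshold of 2. For HCC against normal liver, the count of higher licensing genes was 0 after quantile normalization, after centring on the array median and after upper quartile scaling. It was 1 after centring on the genes above the floor on every array, 1 with log2(intensity + 50), 5 at a log2 threshold of 0.6 and 0 at a threshold of 2. Their median log2 difference was 0 after quantile normalization, upper quartile scaling and centring on genes above the floor on all arrays, -0.11 after median centring of the arrays and 0.29 with a floor of 100. Mcm6 reversed to -0.23 after centring on the array median. The cause was not tested. No paired analysis was possible because each condition has 1 array. Signal over background limits Mcm2 and Mcm5 in both tissues, Mcm3 in normal liver and Cdc6 on every array.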
